A study of Capra hircus with 6 samples.

Results

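The genes described here encode the proteins of the cytosolic and the mitochondrial ribosome in goat (Capra hircus) fetal fibroblasts. They were chosen by name alone: symbols that start with RPL or RPS and a digit, RPLP0, RPLP1, RPLP2 and RPSA for the cytosolic ribosome, and symbols that start with MRPL or MRPS and a digit for the mitochondrial ribosome, without the RPS6K kinases. The rule took 72 of the 11374 genes counted, 30 cytosolic and 42 mitochondrial. RefSeq (assembly ARS1.2) lists 81 protein-coding goat symbols of the cytosolic kind, of which 29 are among the genes analysed, and 77 of the mitochondrial kind, of which 42 are. The rule also took RPS19BP1, a binding partner of RPS19 that is not itself a ribosomal protein, and RPL17-C18orf32, a readthrough locus that joins RPL17 to its neighbour.

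A ribosome has a large subunit (RPL, or MRPL in mitochondria), which joins amino acids into a chain, and a small subunit (RPS, or MRPS), which reads the mRNA. The cytosolic ribosome translates mRNAs of nuclear genes, and cells usually make its proteins in matched amounts because each is needed in a fixed number of copies. The mitochondrial ribosome is assembled from nuclear-encoded proteins imported into the organelle, and it makes the few respiratory chain subunits that the mitochondrial genome encodes.

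Treated fibroblasts grew for 10 weeks with GO-AgNP, a composite of graphene oxide sheets carrying silver nanoparticles, at 0.5 µg/mL, and control fibroblasts grew for as long at 0 µg/mL. All cells were labelled with an age of 50 days, and both groups were passaged every 2 to 3 days. Each group had 3 libraries of total RNA depleted of ribosomal RNA. The genes described here are those of the ribosome's proteins and not of its own RNA. Whether the 3 libraries of a group stand for separate cultures is not in the labels. The p-values measure only how far these samples spread, and that spread may be technical.

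The gene table held 155452 to 218493 reads in a treated and 203786 to 245958 in a control library. A single gene without a symbol, ENSCHIG00000018556, took 30.5% to 47.5% of the treated and 3.51% to 14.5% of the control reads, so values below are CPM, counts scaled to a common library size after TMM normalization, unless a share is named. The kit records the strand, but no source used here gives the counter or its strand setting. For each read of COX1 there were 20.02, 13.7 and 28.4 reads of ND6, which the mitochondrial genome encodes on the other strand, in treated libraries and 89.9, 93.8 and 96.4 in control libraries. This ratio differed between the groups without overlap, and its part in the treated to control differences below was not tested. Reads from the sense and antisense strand of a gene therefore cannot be told apart. A gene's count may be largely antisense and need not stand for its mRNA, so "rose" or "fell" below refers to counted reads. Ribosomal protein genes also have many near-identical processed pseudogene copies, between which reads may have been split or lost. CPM values are not divided by length, so they compare groups and not genes. Fewer cells of a type and less RNA per cell cannot be told apart in such bulk samples. The fibroblast label was checked on 10 marker genes, whose summed level was 18693 to 22939 CPM in treated and 11607 to 13342 CPM in control libraries. Of 6 tested fibroblast markers 4 rose, COL1A1, COL1A2, VIM and DCN. FN1 and PDGFRA had log2 fold changes of -0.30 and -0.91 and did not pass (edgeR adjusted p = 0.0922 and 0.0813).

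The cytosolic set had 550, 443 and 463 reads in the treated libraries 1 to 3, against 587, 687 and 563 in controls. Its share of all gene reads was 0.275% ± 0.0202 in treated and 0.281% ± 0.00612 in control cells (SD, n = 3 each). The mitochondrial set had 135, 110 and 119 reads in treated and 326, 361 and 267 reads in control libraries, a share of 0.0689% ± 0.00637 against 0.146% ± 0.0145 (SD, n = 3 each). The cytosolic share thus overlapped between the groups, and the mitochondrial share was lower in every treated than in any control library, with a ratio of 0.472. The cytosolic overlap depends on the total. Over totals without the most counted gene its share was 0.415% to 0.479% in treated and 0.299% to 0.323% in control libraries, without overlap. On the TMM scale the cytosolic sum was 3230 ± 308.8 CPM in treated and 2400 ± 152.4 CPM in control cells, a ratio of 1.35. By this sum every treated library was above every control library. The mitochondrial sum was 807.2 ± 60.2 CPM against 1240 ± 40.8 CPM, a ratio of 0.651. Scaling therefore moves both sums upwards in treated cells, while the ratio between the sets within a library does not depend on it.

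Each library had 28 or 29 of the 30 cytosolic genes with at least 1 read. Of the 42 mitochondrial genes, 22 to 24 were detected in a treated and 18 to 28 in a control library. There were 25 cytosolic and 9 mitochondrial genes with reads in every library. A cytosolic gene had a median of 114.5 reads over the 6 libraries and a mitochondrial gene 9, against 13 for all genes in the table. The low-count filter of the test therefore kept 23 of 30 cytosolic and 3 of 42 mitochondrial genes, and the calls below speak for those 26 only.

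Few cytosolic ribosomal protein genes changed. Of the 23 tested, RPLP2, RPLP0 and RPL27 rose, none fell and 20 did not pass the test. The test was edgeR's quasi-likelihood test on the whole gene table, at a Benjamini-Hochberg adjusted p of at most 0.05, which called 51.6% of the 2148 genes tested, 24.9% of them higher and 26.7% lower in treated cells. The share called among the cytosolic genes was 13%. Genes tested with the same range of reads, 68 to 298 over the 6 libraries, numbered 1313, and 46.7% of those were called. The changes were also small: the median size of the log2 fold change, whatever its sign, was 0.45 for the cytosolic genes and 1.02 for all genes tested, and 82.6% of cytosolic genes against 49.4% of all tested stayed under 1. With their sign, the cytosolic changes ran from -0.45 to 1.53 with a median of 0.29, beside a median of -0.02 over all genes tested. The fitted change was above 0 for 16 genes and below 0 for 7, and 11 genes without a call changed sign in at least 1 alternative. With no scaling factor the cytosolic median became -0.19 and that of all genes -0.47, so the sign of the median depends on the scaling.

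**Figure D1:**
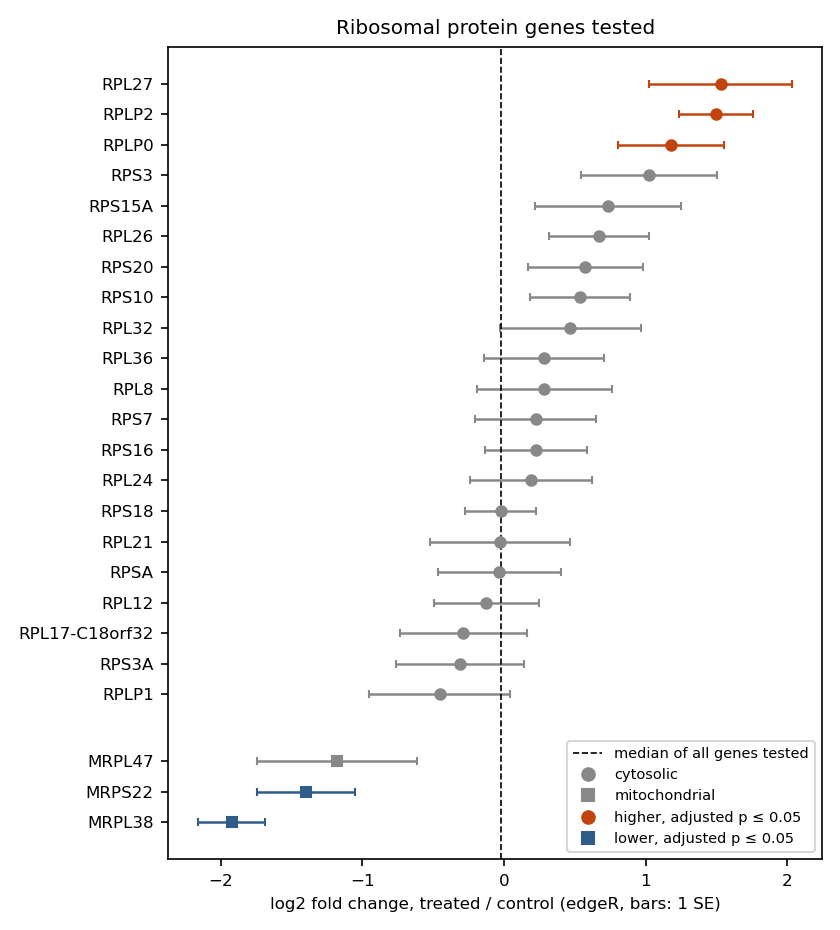
Fitted log2 fold change of 21 of the tested cytosolic genes (circles) and of the 3 tested mitochondrial genes (squares), treated over control, with 1 SE; the dashed line is the median of all 2148 genes tested, -0.02. RPL27, RPLP2 and RPLP0 lie at the top in orange, and MRPL38 and MRPS22 at the bottom in blue. Most cytosolic genes lie within 1 log2 unit of the dashed line.

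The ribosomal stalk held 2 of the 3 cytosolic genes that rose. The stalk is the flexible arm of the large subunit that recruits elongation factors, with RPLP0 at its base and the acidic proteins RPLP1 and RPLP2 bound to it. RPLP2 had 67, 54 and 49 reads in treated and 37, 40 and 26 in control libraries, or 434.1, 386.5 and 312.7 CPM against 146.1, 134.3 and 119.0 CPM. Every treated library was above every control library, and the log2 fold change was 1.496 ± 0.26 (SE; edgeR adjusted p = 6.53e-05). It passed the threshold in all 13 alternative analyses, with log2 fold changes from 1.02 to 1.75.

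RPLP0 had 48, 30 and 29 treated reads and 21, 50 and 12 control reads. In CPM these were 311.0, 214.7 and 185.1 against 82.9, 167.9 and 54.9, so control replicate 2 came close to the lowest treated library without reaching it. The log2 fold change was 1.18 ± 0.37 (SE; edgeR adjusted p = 0.0111). The call was lost with no scaling factor (log2 fold change 0.68, edgeR adjusted p = 0.164), without the filter (adjusted p = 0.0589), and without treated replicate 1 (0.96, adjusted p = 0.0752), control replicate 1 (0.96, adjusted p = 0.0593) or control replicate 3 (0.83, adjusted p = 0.0561).

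RPLP1, the partner of RPLP2, did not share this direction. It had 5, 16 and 7 treated and 16, 26 and 24 control reads, with a log2 fold change of -0.45 ± 0.50 (SE; edgeR adjusted p = 0.463) and CPM values that overlapped between the groups. For each RPLP1 read there were 13.4, 3.38 and 7 RPLP2 reads in treated and 2.31, 1.54 and 1.08 in control libraries, a ratio that needs no scaling and does not overlap. RPLP2 had been called higher from these reads and RPLP1 reads were few, so that ratio is no separate evidence. RPLP2 reads per RPLP0 read were 1.63 ± 0.209 in treated and 1.58 ± 0.702 in control cells (SD, n = 3 each). RPLP0 and RPLP2 together made up 20.9, 18.96 and 16.8 of each 100 cytosolic set reads in treated and 9.88, 13.1 and 6.75 in control libraries. Both had been called higher from the same reads, and RPLP1 is left out, so this share is no separate evidence. The summed level of the 3 stalk genes was 678.6 ± 121.9 CPM in treated and 321.8 ± 58.8 CPM in control cells (SD, n = 3 each).

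In the rest of the large subunit 1 of 9 tested genes rose. RPL27, a large subunit protein whose gene is mutated in some families with Diamond-Blackfan anaemia in humans, had 15, 12 and 16 treated and 11, 8 and 6 control reads. These were 97.2, 85.9 and 102.1 CPM against 43.4, 26.9 and 27.5 CPM, with no overlap, and the log2 fold change was 1.53 ± 0.51 (SE; edgeR adjusted p = 0.0145). The call rests on few reads, and RPL27 passed the low-count filter only with its treated reads, the group in which it is higher. It was lost with no scaling factor (log2 fold change 1.07, edgeR adjusted p = 0.0964), without the filter (adjusted p = 0.103), and without control replicate 2 (adjusted p = 0.0774) or control replicate 3 (adjusted p = 0.0677).

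RPL26, which lies near the exit of the tunnel for the nascent chain, had 26, 20 and 27 treated and 26, 30 and 22 control reads, and its CPM values did not overlap between the groups (log2 fold change 0.67 ± 0.35 SE; edgeR adjusted p = 0.115). Its near-identical paralog RPL26L1 had 2, 6 and 0 treated and 1, 2 and 6 control reads and was below the filter. Reads of the pair may have been split between them. RPL12, which sits at the base of the stalk, had a log2 fold change of -0.12 ± 0.37 (SE), with 13, 17 and 23 treated and 34, 34 and 30 control reads. RPL8, a protein beside the peptidyl transferase centre, had a log2 fold change of 0.28 ± 0.48 (SE). RPL24, which takes part in a bridge between the subunits, stood at 0.19 ± 0.43, and RPL32, RPL36, RPL21 and RPL17-C18orf32 at 0.47, 0.29, -0.03 and -0.29. None of these passed the test, and the SE of each was 0.35 to 0.50.

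No gene of the small subunit passed the test among the 11 tested, whose median log2 fold change was 0.54. RPS18, a protein of the small subunit's head, had the most reads of the set: 35, 34 and 40 in treated and 55, 76 and 58 in control libraries, or 226.8, 243.3 and 255.3 CPM against 217.1, 255.2 and 265.4 CPM. The groups overlapped, and its log2 fold change was -0.02 ± 0.25 (SE; edgeR adjusted p = 0.945).

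RPS3, which lines the entry of the mRNA channel, had 15, 21 and 10 treated and 11, 11 and 16 control reads, and a log2 fold change of 1.02 ± 0.48 (SE; edgeR adjusted p = 0.0796). Its groups overlapped through control replicate 3, and it passed the test without treated replicate 3 (1.41, edgeR adjusted p = 0.0236). RPS10 and RPS20, which are ubiquitinated when ribosomes collide on an mRNA in human cells, had log2 fold changes of 0.54 ± 0.35 and 0.58 ± 0.41 (SE). RPS10 had 158.7 ± 27.0 CPM in treated and 109.5 ± 4.27 CPM in control cells (SD, n = 3 each) with no overlap. Other genes that did not pass were RPS15A at 0.74, RPS7 and RPS16 both at 0.22, RPSA, which is also known as a laminin receptor, at -0.03, and RPS3A at -0.31. Small subunit reads numbered 92.5 ± 8.73 per 100 large subunit reads in treated and 105.7 ± 8.41 in control cells (SD, n = 3 each). The lowest control library (97.4) lay below the highest treated library (99.6). These small subunit reads include RPS19BP1, which is not a ribosomal protein and had 11, 2 and 9 treated and no control reads. Its reads raise only the treated ratios, so the values do not show an overlap for the ribosomal proteins alone. The large subunit reads include RPL17-C18orf32.

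**Figure D2:**
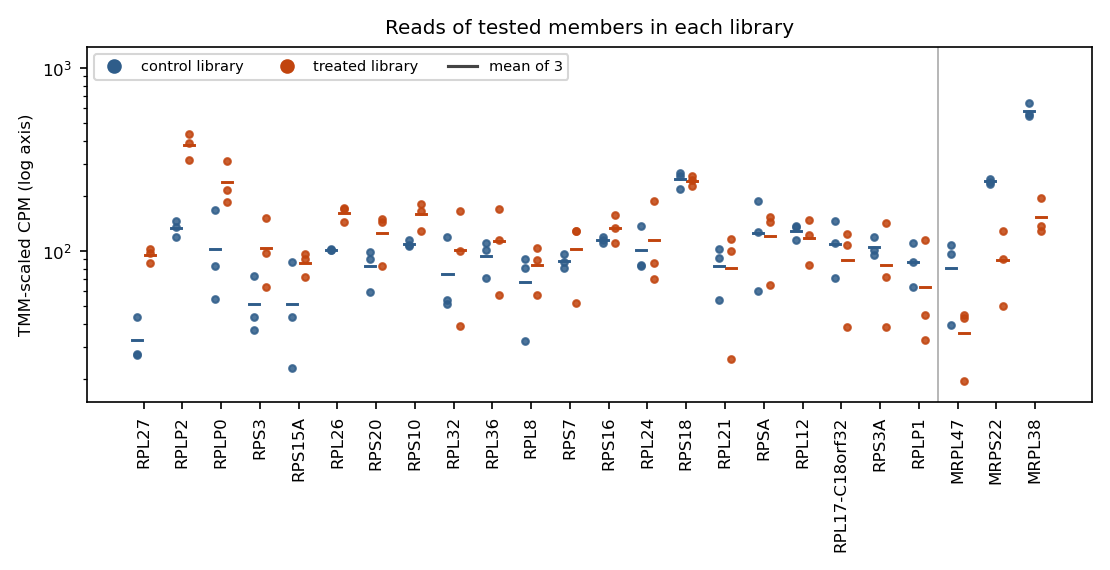
TMM-scaled CPM on a log axis of the genes shown, in each library, control in blue and treated in orange, with a short line at the mean of 3; the grey vertical line separates 21 cytosolic from 3 mitochondrial genes. RPLP2 is separated between the groups on the left and MRPL38 and MRPS22 on the right, and RPS18 overlaps at about the same level (241.8 CPM treated and 245.9 CPM control on average).

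In 6 of the 23 tested cytosolic genes the CPM of the groups did not overlap, against 58.8% of all genes tested. RPLP2, RPLP0, RPL27, RPL26 and RPS10 were among them, each higher in treated cells. The 7 cytosolic genes below the filter had 17 to 46 reads over the 6 libraries. RPL36A had 11, 1 and 2 treated and 9, 14 and 9 control reads. RPS29 had 11, 3 and 4 treated and 7, 2 and 0 control reads, and RPS21 had 4, 3 and 3 against 6, 7 and 4. RPL36A, RPS29, RPS21 and RPL26L1 overlapped between the groups.

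The remaining 3 did not overlap, against 40.5% of the 2559 genes below the filter with reads in the same range. RPS4X, the X-linked form of RPS4, had 0, 2 and 3 treated and 12, 15 and 8 control reads. RPS27L, a paralog of RPS27 that p53 induces in human cells, had 0, 0 and 1 treated and 6, 7 and 5 control reads, a level 10.5-fold lower in treated cells with an exact 95% counting interval of 1.66 to 439.2. RPS19BP1 had 11, 2 and 9 treated and no control reads, at least 12.5-fold higher against a floor of 3 reads over the control group. In the fit without a filter, which called 8.27% of all genes higher and 10.2% lower, RPS19BP1 (edgeR adjusted p = 0.000272) was called higher, RPS4X was called lower (log2 fold change -2.22, adjusted p = 0.0471), and RPS27L was not called (adjusted p = 0.0643). Intervals and floors cover counting error only.

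In the mitochondrial set MRPL38 and MRPS22, its most counted genes, both fell. MRPL38, a mitochondria-specific protein of the large subunit's central protuberance, had 30, 19 and 20 treated and 162, 163 and 122 control reads. These were 194.4, 136.0 and 127.6 CPM against 639.6, 547.3 and 558.2 CPM, far apart in every library. The log2 fold change was -1.92 ± 0.24 (SE; edgeR adjusted p = 1.32e-06). It passed in all 13 alternatives, from -2.41 to -1.67.

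MRPS22, a small subunit protein with no bacterial counterpart whose mutations cause a mitochondrial disease in humans, had 14, 7 and 20 treated and 59, 71 and 54 control reads. These were 90.7, 50.1 and 127.6 CPM against 232.9, 238.4 and 247.1 CPM, so the treated libraries varied widely and all stayed below the controls. The log2 fold change was -1.40 ± 0.35 (SE; edgeR adjusted p = 0.00182), past the threshold in all 13 alternatives, from -1.85 to -1.01. MRPL47, a large subunit protein near the tunnel exit, had 3, 6 and 7 treated and 10, 32 and 21 control reads. Its groups overlapped through control replicate 1, and its log2 fold change was -1.18 ± 0.56 (SE; edgeR adjusted p = 0.0837). It passed with no scaling factor (-1.60, edgeR adjusted p = 0.0263) and without control replicate 1 (-1.59, adjusted p = 0.0294). Of the 3 mitochondrial genes tested, 2 were thus lower and none higher, beside 26.7% lower among all genes tested. MRPS22 and MRPL47 passed the low-count filter only with their control reads, the group in which they are higher. The shared direction of the tested genes is therefore partly set by the filter and does not speak for the set. In mean CPM 20 of the 39 genes below the filter were higher and 19 lower in treated cells.

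Within each library there were 24.5, 24.8 and 25.7 mitochondrial reads per 100 cytosolic reads in treated cells and 55.5, 52.5 and 47.4 in control cells, or 25.03 ± 0.602 against 51.8 ± 4.10 (SD, n = 3 each). The ratio was lower in every treated library, and no scaling enters it. MRPL38 alone gave 4.69 ± 0.664 reads per 100 cytosolic reads in treated and 24.3 ± 3.01 in control cells. MRPS22 gave 2.82 ± 1.39 and 9.99 ± 0.375 (SD, n = 3 each). Both genes together held 66.1% of the mitochondrial set's reads in control and 30.2% in treated cells.

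Without MRPL38 and MRPS22 the ratio was 16.5, 18.96 and 17.1 in treated and 17.9, 18.5 and 16.2 in control libraries, 17.5 ± 1.27 against 17.5 ± 1.21 (SD, n = 3 each). The other 40 mitochondrial genes, 254 reads in treated and 323 in control cells, thus had ratios to the cytosolic set that overlapped between the groups. Their summed level was 565.0 ± 53.0 CPM in treated and 419.1 ± 6.40 CPM in control cells, a ratio of 1.35, and their share of the gene reads had a treated to control ratio of 0.980. Leaving out these genes was chosen after the data were seen.

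**Figure D3:**
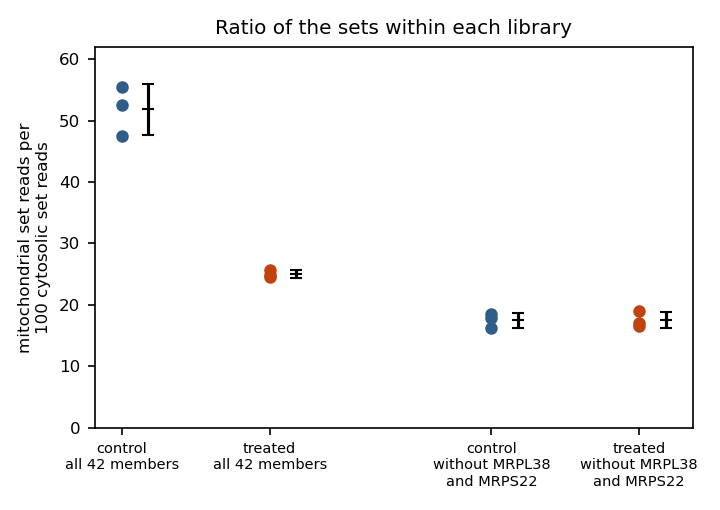
Mitochondrial set reads per 100 cytosolic set reads in each library (points), with mean and SD as black bars, for all 42 mitochondrial genes on the left and without MRPL38 and MRPS22 on the right. The left pair is separated, 51.8 in control and 25.03 in treated cells, and the right pair overlaps at 17.5.

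The 39 mitochondrial genes below the filter had 1 to 43 reads over the 6 libraries, with a median of 9. In mean CPM 20 were higher and 19 lower in treated cells. Reads were absent from all treated libraries for 9 of them and from all control libraries for 8, and 11 had no more than 3 reads over the 6 libraries. The most counted of them included MRPS27, MRPS34 and MRPL21. MRPS27, a pentatricopeptide repeat protein of the small subunit, had 9, 8 and 4 treated and 6, 6 and 10 control reads. MRPS34 had 8, 5 and 4 treated and 9, 6 and 9 control reads, and MRPL21 had 0, 6 and 4 against 13, 4 and 3. These overlapped between the groups.

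MRPL12, the mitochondrial stalk protein, which also binds the mitochondrial RNA polymerase, had 12, 5 and 14 treated and 3, 3 and 1 control reads. Its CPM was 67.6 ± 28.2 in treated and 8.83 ± 3.79 in control cells (SD, n = 3 each), and in the fit without a filter its log2 fold change was 2.57 (edgeR adjusted p = 0.00923). MRPS12, the small subunit protein at the decoding site, had 0, 2 and 4 treated and 6, 15 and 14 control reads, with an edgeR adjusted p of 0.067 without a filter. MRPL12 thus lay on the side opposite to MRPL38 and MRPS22.

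Among the 39, 7 did not overlap between the groups, against 25% of the 8803 genes below the filter with reads in the same range. They were MRPL12, MRPL17, MRPL4, MRPL44 and MRPL52, which were higher in treated cells, and MRPL41 and MRPS9, which were lower. These and the genes in the rest of this paragraph were named after their values were seen. MRPL44, which carries an RNase III-like domain, had 4, 2 and 6 treated and no control reads, at least 6.83-fold higher against the floor (edgeR adjusted p = 0.0131 without a filter). MRPL27 had 0, 14 and 5 treated and no control reads, at least 10.8-fold higher (edgeR adjusted p = 0.00067 without a filter), though treated replicate 1 matched the controls at 0. MRPL17 had 9, 6 and 2 treated and 1, 3 and 0 control reads, and MRPL41 had 2, 1 and 1 against 4, 8 and 12. In that fit 3 of the 42 mitochondrial genes were called higher, MRPL12, MRPL27 and MRPL44, and 2 lower, MRPL38 and MRPS22, against 8.27% called higher and 10.2% called lower of all 11374 genes.

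**Figure D4:**
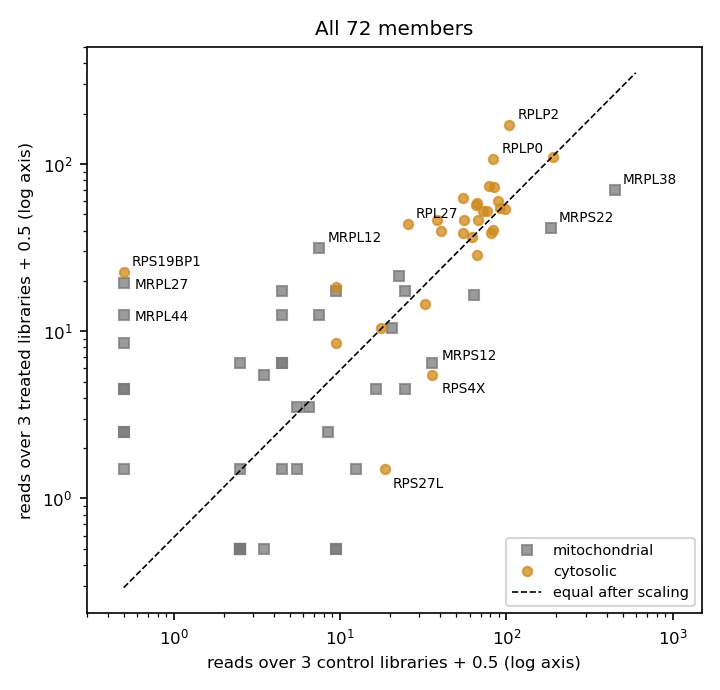
Reads summed over the 3 treated libraries against the 3 control libraries for all 72 genes, with 0.5 added so that 0 can be drawn on the log axes; the dashed line marks equal levels after TMM scaling. Most cytosolic genes (circles) gather along or just above the line, MRPL38 and MRPS22 lie below it, and mitochondrial genes (squares) with few reads scatter on both sides.

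The sets differed in how close they lie to other genes. Another RefSeq gene overlapped or lay within 1 kb of 29 of 42 mitochondrial genes (69.0%) and of 7 of 27 placed cytosolic genes (25.9%), against 48.0% of all 8451 named genes with a position. RPLP2, RPLP0 and RPL27 have no such neighbour. All 3 tested mitochondrial genes have at least 1: a long noncoding RNA overlaps MRPL38, COPB2 lies 566 bp from MRPS22, and NDUFB5 and ACTL6A lie 28 and 148 bp from MRPL47. COPB2, a subunit of the coat of Golgi vesicles, had 1, 2 and 3 treated and 6, 11 and 8 control reads. ACTL6A, an actin-like subunit of chromatin remodelling complexes, fell with a log2 fold change of -0.78 ± 0.27 (SE; edgeR adjusted p = 0.0186). EME1, a DNA repair endonuclease subunit that overlaps MRPL27, had 766 treated and 1508 control reads and a log2 fold change of -0.21 ± 0.15 (SE; edgeR adjusted p = 0.255).

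The 29 mitochondrial genes with a neighbour had 581.4 ± 60.5 CPM in treated and 1161 ± 19.4 CPM in control cells (SD, n = 3 each). MRPL38 and MRPS22 gave 110 of the 261 treated and 631 of the 893 control reads of these 29. The 13 without a neighbour had 225.8 ± 78.0 CPM against 78.9 ± 24.6 CPM, or 103 against 61 reads. These sums differed in direction. The lower sum of the 29 rests largely on MRPL38 and MRPS22, so it does not speak for the other genes with a neighbour. Of the cytosolic genes, the 20 without a neighbour had 2277 ± 330.9 CPM in treated and 1452 ± 76.7 CPM in control cells, and the 7 with one had 821.9 ± 88.7 CPM against 752.9 ± 99.6 CPM. The part of neighbouring or antisense transcripts in these differences was not tested.

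Beside the members, marker genes of other cell types had few reads. KRT19 and KRT8, keratins of epithelial cells, had 50 reads in treated and 0 in control cells, 84.2 to 153.2 CPM in a treated library. SOX10 and S100B, of neural crest and glia, had 20 and 0 reads. CDH5, an endothelial cadherin, had 4 treated and 26 control reads. Of blood cell genes, CD68 had 8 treated and 4 control reads and CD14 had 0 and 18. Of 4 muscle genes, MYH3 had 3 treated and 0 control reads. MYF5, ACTC1 and DES had 0 treated and 1, 6 and 7 control reads. Their part in the changes of ribosomal protein genes was not tested.

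Other genes of translation were counted in lists by role. Ribosomal proteins that carry other names had 2 tested genes and no call. These were RACK1, a small subunit scaffold protein at a log2 fold change of 0.52 (edgeR adjusted p = 0.27), and PTCD3, a mitochondrial small subunit protein at -0.49 (adjusted p = 0.157). Of 31 listed initiation factors 10 were tested, of which 3 rose, none fell and the median was 0.59. Those below the filter lay on both sides, some with reads in a single group only. EIF4G1, the scaffold of the cap-binding complex, rose by 1.17 ± 0.26 on the log2 scale (SE; edgeR adjusted p = 0.000847), EIF3G by 1.68 ± 0.47 (adjusted p = 0.00503) and EIF4G2 by 0.59 ± 0.25 (adjusted p = 0.049). Of 4 tested elongation and release factors, EEF1D, an exchange factor of elongation, rose (1.01, edgeR adjusted p = 0.0278) and ETF1, the release factor, fell (-1.88, adjusted p = 0.00578).

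Of 8 tested cytosolic aminoacyl-tRNA synthetases and their partners, which charge tRNAs with amino acids, TARS1 rose (2.66, edgeR adjusted p = 0.00149) and GARS1 and AIMP2 fell (-1.07 and -0.99, adjusted p = 0.00595 and 0.00637). In mitochondria 1 of 4 tested translation factors and synthetases fell, YARS2 (-1.55, edgeR adjusted p = 0.0235), and the median was -0.77. The list held 23 genes, and their summed CPM had a treated to control ratio of 0.995. The median of the 4 tested genes therefore does not speak for the list. TFB1M, an rRNA methyltransferase and the 1 tested gene of mitochondrial ribosome assembly, stood at -1.12 (edgeR adjusted p = 0.0641). Ribosome biogenesis had 46 listed genes and 11 tested, of which none rose and HEATR1, RPF1 and TSR1 fell. The summed CPM of the 46 had a treated to control ratio of 0.809. Those below the filter lay on both sides, some with reads in a single group only. HEATR1, a factor for the transcription and processing of ribosomal RNA precursors, had a log2 fold change of -2.32 ± 0.30 (SE; edgeR adjusted p = 2.05e-06). RPF1, a large subunit maturation factor, fell by 1.47 (edgeR adjusted p = 0.011) and TSR1, a small subunit maturation factor, by 1.16 (adjusted p = 0.00151).

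Among 6 tested regulators of translation, 1 rose and 2 fell. LARP1, an RNA-binding protein that in human and mouse cells controls the mRNAs of ribosomal proteins downstream of mTOR, rose with a log2 fold change of 2.12 ± 0.32 (SE; edgeR adjusted p = 1.31e-05). EIF2AK4, the kinase GCN2 that senses uncharged tRNAs, fell (-1.70 ± 0.19 SE; edgeR adjusted p = 3.62e-07), as did EIF4EBP3, a repressor of cap-dependent initiation (-1.57, adjusted p = 0.0161). These counts stand beside the 24.9% of all genes tested that rose and the 26.7% that fell. Counts and medians of the lists cover tested genes only and do not speak for whole lists. EIF3G and TARS1 passed the low-count filter only with their treated reads. ETF1, YARS2, RPF1 and EIF4EBP3 passed it only with their control reads. Each was higher in the group that let it pass, so the filter took part in these calls.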

How the data were processed

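Reads were counted in 3 treated and 3 control libraries, grouped by the labelled treatment. The authors deposited raw counts per gene, circular RNA and lncRNA, per the file headers, and 18 normalized columns were left aside. CASAVA 1.8, BWA and hg19, a human build, stand in the submitters' processing notes. The sources used here give neither counter, strand setting nor annotation, so no coordinates are printed. No circular RNA or lncRNA row belongs to a member. Genes were tested on the whole table with edgeR 4.0.16 in R 4.3.3 (TMM, filterByExpr with a minimum count of 10, glmQLFit, glmQLFTest, Benjamini-Hochberg adjustment at 0.05), treated against control. The SE is |log2 fold change| over the root of its F statistic. Sums, shares and ratios are values per library with mean and SD and no test. Bounds use a floor of 3 reads per group, and intervals are exact at 95%. Neighbours came from the RefSeq gene table by gene number and symbol, with a distance of 1000 bp. The totals per library, 155452 to 245958 reads, limit precision for members with few reads. The fitting code was tested on simulated data. No libraries of a group were duplicates by chi-square.

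The members and lists were chosen with earlier results of these data known. Tested members could all be named, in addition to the 5 most counted members below the filter per set and up to 4 called genes per list, or the 2 most counted where none was called. Alternatives were a fit with no filter or with a minimum mean count of 10, size factors from DESeq2 or none, the Wald test of DESeq2 1.42.0, the replicate number as a block, no most counted gene, members without a neighbour, other totals for the shares, and leaving out each library. Sets without RPS19BP1 and RPL17-C18orf32, and without MRPL38 and MRPS22, were added after seeing the data. Read ratios between genes or sets were not planned. Counts and sums cover all members, of which some are not reported here. Python 3.11.15 with pandas 2.3.3 and scipy 1.17.1 was used.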

Additional observations from a re-analysis of the deposited data

How the results depend on the processing

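Depth limits the mitochondrial set most: 39 of its 42 genes were below the filter, so their calls depend on it. Among the 26 tested members, 291 of 337 values under an alternative kept direction and side of the threshold, 9 lost and 6 gained the call, and 31 changed sign, in 11 cytosolic genes that were called neither way. The log2 fold change turned with no scaling factor for RPL24 (-0.31), RPL36 (-0.20), RPL8 (-0.21), RPS16 (-0.22) and RPS7 (-0.19). It turned without a filter for RPL24 (-0.069), RPS16 (-0.040) and RPS7 (-0.038), and with a mean count of at least 10 for RPL12 (0.0080), RPL21 (0.11), RPS18 (0.11) and RPSA (0.094). DESeq2 size factors gave RPL21 0.013 and RPS18 0.0039, and the DESeq2 Wald test gave 0.014 and 0.0038. Leaving out each library gave -0.30 to 0.089 for RPL12, -0.59 to 0.22 for RPL17-C18orf32, -0.38 to 0.54 for RPL21, -0.35 to 0.60 for RPL24, -0.092 to 0.72 for RPL36, -0.098 to 0.62 for RPL8, -0.19 to 0.095 for RPS18, -0.92 to 0.19 for RPS3A and -0.47 to 0.30 for RPSA. The cause was not tested. With no scaling factor 326 genes were called higher in all, 1 of them cytosolic (RPLP2), and the cytosolic median log2 fold change was -0.19. The median of all genes was then -0.47. Without a filter 941 genes were called higher and 1165 lower in all, 1 cytosolic gene lower (RPS4X) and 3 mitochondrial genes higher, and the medians were 0.016 (cytosolic) and -0.43 (mitochondrial). With a mean count of at least 10 the cytosolic median was 0.43. Among mitochondrial members without a neighbour 0 genes were called lower, since none was tested. The treated to control ratio of the cytosolic share was 1.44 over the total without the most counted gene and 1.35 over TMM-scaled sizes, and that of the mitochondrial share 0.697 and 0.651, or 0.980 without MRPL38 and MRPS22. Leaving out each library gave 2 to 5 cytosolic genes higher and 0 to 1 lower, with medians of 0.19 to 0.58, and 0 to 1 mitochondrial genes higher and 2 to 4 lower, with medians of -1.61 to -1.21. The most cytosolic calls came without treated replicate 2, where RPS19BP1 was among those added, and the most mitochondrial ones without control replicate 1, where MRPL47, MRPS12 and MRPL12 were added. The share ratios then ran from 0.954 to 1.02 (cytosolic) and from 0.449 to 0.496 (mitochondrial). Same-numbered libraries did not deviate together (r = -0.034 to -0.013, against -0.012 to 0.028 for the other pairs). At this depth that cannot exclude a pairing by number. With the number as a replicate block 497 genes were higher and 544 lower in all, and 3 and 0 of the cytosolic and 0 and 2 of the mitochondrial genes.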
